A study of Homo sapiens with 12 samples.

Results

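Protein-protected RNA was described at 7 loci that encode parts of the cytoskeleton: the actins ACTG1 and ACTB, the actin-binding protein CFL1, the tubulins TUBB, TUBA1B and TUBA1A, and the intermediate filament protein VIM. The members are all sites whose midpoint lay, on the strand of the gene, inside 1 fixed interval per gene, in build hg19. They were 491 of the 513381 sites in the 6 replicate lists, or 0.0956%. Of these, 213 came from the ssRNase lists and 278 from the dsRNase lists. The loci were selected on the measured positions of sites, with results of the same lists known. The presence and number of sites at them, and the difference between nucleases in how much was protected, are therefore given as a description.

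Actin filaments and microtubules are built from actin monomers and from dimers of alpha- and beta-tubulin, and vimentin forms the intermediate filaments of mesenchymal cells. Cofilin, the product of CFL1, severs and disassembles actin filaments. The mRNAs of these proteins are abundant in dividing cells, and some of them are bound by regulatory proteins, among them the zipcode-binding protein on the ACTB mRNA, while tubulin mRNAs are degraded during translation when free tubulin dimers accumulate.

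The cells were HEK293T, an established line of human embryonic kidney origin, cross-linked with 1% formaldehyde for 10 minutes. The nuclease added to a lysate was either ssRNase (RNase ONE, specific for unpaired RNA) or dsRNase (RNase V1, specific for paired RNA). Footprint libraries were digested with protein in place, and digestion controls after SDS and proteinase K had removed it. Each of the 4 groups (ssRNase footprint, ssRNase digestion control, dsRNase footprint, dsRNase digestion control) had 3 replicates, and the authors compared footprint with control in each pair, giving 3 ssRNase and 3 dsRNase lists of protected sites. The labels do not state whether replicates are separate cultures; the p-values reflect the spread among the samples at hand, which may be technical. The lists give positions and scores but no read counts, so the depth behind a site and the abundance of each mRNA are unknown, and their part in any result was not tested. The ssRNase lists held 57481 to 209922 sites and the dsRNase lists 21561 to 28413 sites.

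The intervals were taken as whole genes, and introns were not removed. ACTG1 was taken as chr17:79476997-79479892 (2896 bp, minus strand) and ACTB as chr7:5566779-5570232 (3454 bp, minus strand). CFL1 was taken as chr11:65622285-65625804 (3520 bp, minus strand). TUBB was taken as chr6:30688157-30693199 (5043 bp, plus strand), TUBA1B as chr12:49521566-49525304 (3739 bp, minus strand) and TUBA1A as chr12:49578578-49583107 (4530 bp, minus strand). VIM was taken as chr10:17270258-17279592 (9335 bp, plus strand). All 7 had a site in each of the 6 lists, as had 14.3% of all windows and loci with a site in at least 3 lists. One member site crossed an edge, a TUBB site of 57 nt in ssRNase replicate 1 with 28 nt before the 5′ edge; sites were not trimmed, so all its bases count for TUBB, while coverage along the interval takes in only the part inside. An annotation of hg19 was not used here, so sites were not placed in exons, introns or untranslated regions.

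With dsRNase the 2 actin loci carried the most protected bases, and they were the 2 loci whose mean in bases was lower with ssRNase, although the ssRNase lists are the longer ones. ACTG1 encodes gamma-actin, a cytoplasmic actin. ACTG1 held 652, 225 and 371 protected bases in the ssRNase lists, against 1134, 1086 and 1151 in the dsRNase lists. All 3 ssRNase lists lay below all 3 dsRNase lists, and the dsRNase lists were close to each other. The mean was 416 ± 217 bases with ssRNase and 1124 ± 33.7 with dsRNase (SD over n = 3 lists each), a ratio of 0.370. In number of sites ACTG1 had 14, 8 and 10 with ssRNase and 25, 21 and 18 with dsRNase, again without overlap, while the number of sites overlapped between nucleases at the other 6 loci.

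ACTB encodes beta-actin, the other cytoplasmic actin. ACTB held 1049, 395 and 922 protected bases in the ssRNase lists, against 1044, 1195 and 1325 in the dsRNase lists. The groups overlapped by a small margin, since ssRNase replicate 1 lay just above dsRNase replicate 1. The mean was 789 ± 347 bases with ssRNase and 1188 ± 141 with dsRNase (SD over n = 3 lists each), a ratio of 0.664. Protected bases covered 22.8% ± 10.0 of the ACTB interval with ssRNase and 34.4% ± 4.07 with dsRNase (SD over n = 3 lists each).

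For the other 5 loci the bases as listed overlapped between nucleases, and the mean was higher with ssRNase. CFL1 held 681, 125 and 388 bases with ssRNase, against 364, 380 and 337 with dsRNase. The dsRNase values of CFL1 sat inside the range of the ssRNase values. TUBB, a beta-tubulin, held 747, 86 and 406 bases with ssRNase, against 210, 392 and 322 with dsRNase. Here too the ssRNase lists spanned a wider range than the dsRNase lists.

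TUBA1B and TUBA1A encode near-identical alpha-tubulins. TUBA1B held 1034, 244 and 577 bases with ssRNase, against 469, 520 and 740 with dsRNase. TUBA1A held 848, 222 and 621 bases with ssRNase, against 415, 438 and 555 with dsRNase. At both, ssRNase replicate 1 was the highest list and ssRNase replicate 2 the lowest. VIM held 437, 121 and 329 bases with ssRNase, against 176, 314 and 382 with dsRNase. VIM had the lowest cover, 3.17% ± 1.72 of its long interval with ssRNase and 3.11% ± 1.12 with dsRNase (SD over n = 3 lists each). In all 7 genes ssRNase replicate 2, the shortest of its 3 lists, had the fewest bases of the ssRNase lists.

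ACTG1 was thus 1 of 7 loci without overlap in bases as listed, with dsRNase above, where 0.458% of all windows and loci and 0.803% of those with a site in all 6 lists were so. ACTG1 and ACTB were 2 of 7 with a higher mean in bases with dsRNase, where 4.06% of those with a site in all 6 lists were so. The windows are 10000 bp long and the loci shorter, so these shares are a background and not matched controls.

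**Figure D1:**
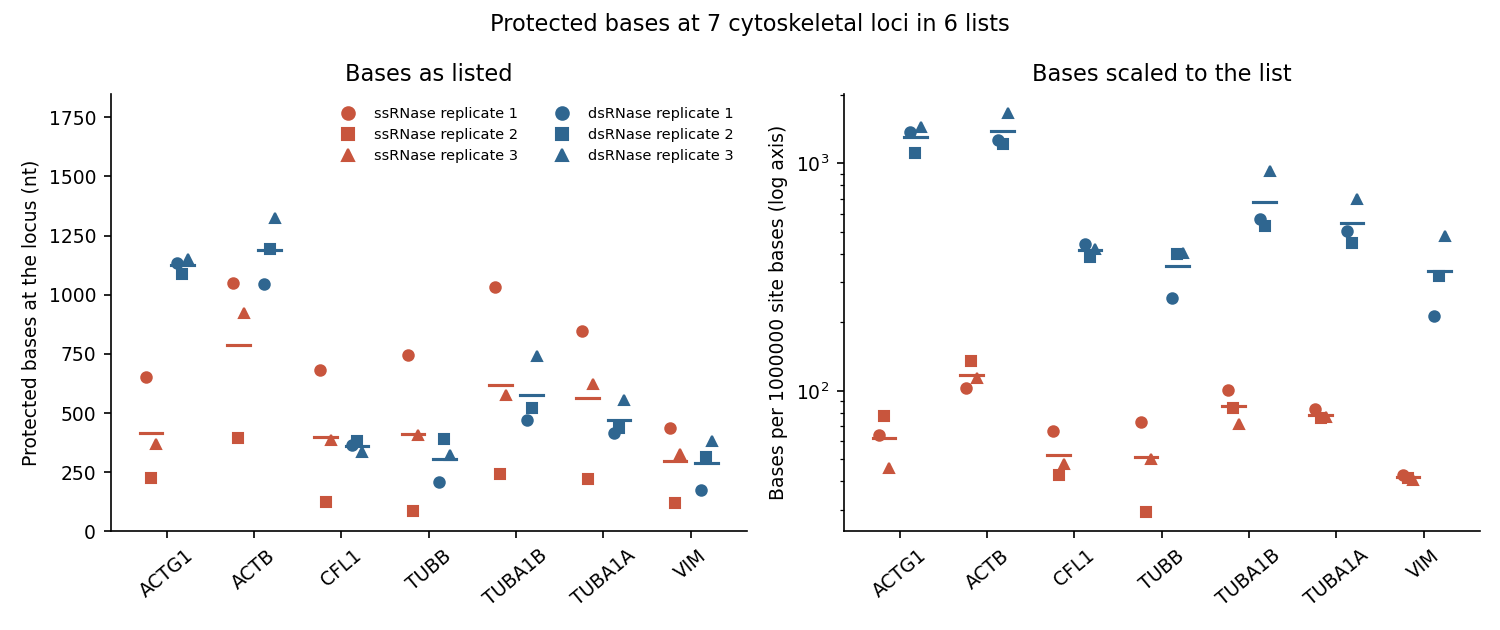
Protected bases at each locus in nt (left) and per 1000000 site bases of the list on a log axis (right), with 1 point per list, circles, squares and triangles for replicates 1, 2 and 3, ssRNase in red to the left of dsRNase in blue, and a line at the mean. As listed, the nucleases are apart only at ACTG1, whereas after scaling all 7 loci are lower with ssRNase, with 29.5 to 135.5 bases per 1000000 against 213.7 to 1658 with dsRNase.

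As a share of its list every locus was lower with ssRNase. This share divides the bases of a locus by all site bases of the list, and the ssRNase lists held 2915002 to 10193603 site bases against 798935 to 979087 in the dsRNase lists. The 7 loci together held 534.5, 486.4 and 446.1 bases per 1000000 in the ssRNase lists, against 4629, 4417 and 6023 in the dsRNase lists. They thus took a like share of each ssRNase list although these lists differed in length. The mean was 489 ± 44.2 bases per 1000000 with ssRNase and 5023 ± 872 with dsRNase (SD over n = 3 lists each), a ratio of 0.0973. Bases as listed gave no such gap for the 7 loci together, with 3493 ± 2018 bases with ssRNase and 4316 ± 500 with dsRNase (SD over n = 3 lists each; groups overlapping).

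With ssRNase ACTB was the richest locus and ACTG1 lay below both alpha-tubulins in mean, while with dsRNase the 2 actins lay above the other 5 loci. ACTB held 117.4 ± 16.6 bases per 1000000 with ssRNase and 1382 ± 240 with dsRNase (SD over n = 3 lists each), and ACTG1 held 62.3 ± 15.8 and 1309 ± 176 (SD over n = 3 lists each). With dsRNase the 2 actins could not be ordered, since their spreads overlapped, while with ssRNase every ACTB value was above every ACTG1 value. TUBA1B held 85.5 ± 15.2 with ssRNase and 676 ± 218 with dsRNase, and TUBA1A 78.7 ± 3.93 and 549 ± 130 (SD over n = 3 lists each). TUBA1B and TUBA1A overlapped with each other under both nucleases. CFL1 held 52.5 ± 12.6 with ssRNase and 417 ± 27.2 with dsRNase, TUBB 51.0 ± 21.9 and 353 ± 84.7, and VIM 41.7 ± 1.14 and 338 ± 133 (SD over n = 3 lists each). These last 3 overlapped with one another under dsRNase.

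The nuclease difference was taken from 1 limma fit over 31430 windows and loci, as log2(bases per 1000000 + 20), ssRNase minus dsRNase; on this scale a fold is understated where values are low. It was -4.02 (SE 0.221) at ACTG1 and -3.34 (SE 0.203) at ACTB. At CFL1 it was -2.60 (SE 0.192), at TUBB -2.41 (SE 0.313), at TUBA1B -2.69 (SE 0.269), at TUBA1A -2.50 (SE 0.213) and at VIM -2.47 (SE 0.299). The actins lay farthest from 0, and the other 5 differed from one another by less than the SE of TUBB.

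All 7 loci passed a limma adjusted p of 0.05, with adjusted p-values from 0.00446 to 0.00657, and all 7 were lower with ssRNase. In the same fit 33.6% of all windows and loci passed in either direction and 7.04% passed lower with ssRNase, or 34.0% of the 4482 with a site in all 6 lists. The loci were not chosen independently of these lists, so these p-values add no support. In all 7 the scaled values did not overlap, as in 9.57% of all windows and loci and 47.5% of those with a site in all 6 lists. The median difference of the 4482 was -0.69, with the middle 90% from -2.19 to 0.59. Ranked from the most negative, ACTG1 was number 6 of the 4482, ACTB 23, TUBA1B 80, CFL1 105, TUBA1A 123, VIM 135 and TUBB 154. The windows are longer than the loci and were not cut to single genes, so these ranks too are set against a background and not matched controls.

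Fewer loci passed when an ssRNase list was left out. Without ssRNase replicate 1 the limma adjusted p was 0.0584 at TUBB, 0.0636 at TUBA1A and 0.0759 at VIM, and the other 4 passed. Without ssRNase replicate 2 or without ssRNase replicate 3, ACTG1 and ACTB were the 2 that passed. Of all windows and loci, 147 of 16301 passed without ssRNase replicate 1 and 51 of 19691 without ssRNase replicate 2. Without ssRNase replicate 3, 45 of 16482 passed, against 10562 of 31430 in the main fit. The differences of the 7 loci lay between -4.15 and -2.18 over these fits, against -4.02 to -2.41 in the main fit. With the same number of sites drawn from every list 5 loci passed, and TUBB (limma adjusted p = 0.102) and TUBA1A (limma adjusted p = 0.0930) did not. In that fit 1668 of 11898 windows and loci passed.

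**Figure D2:**
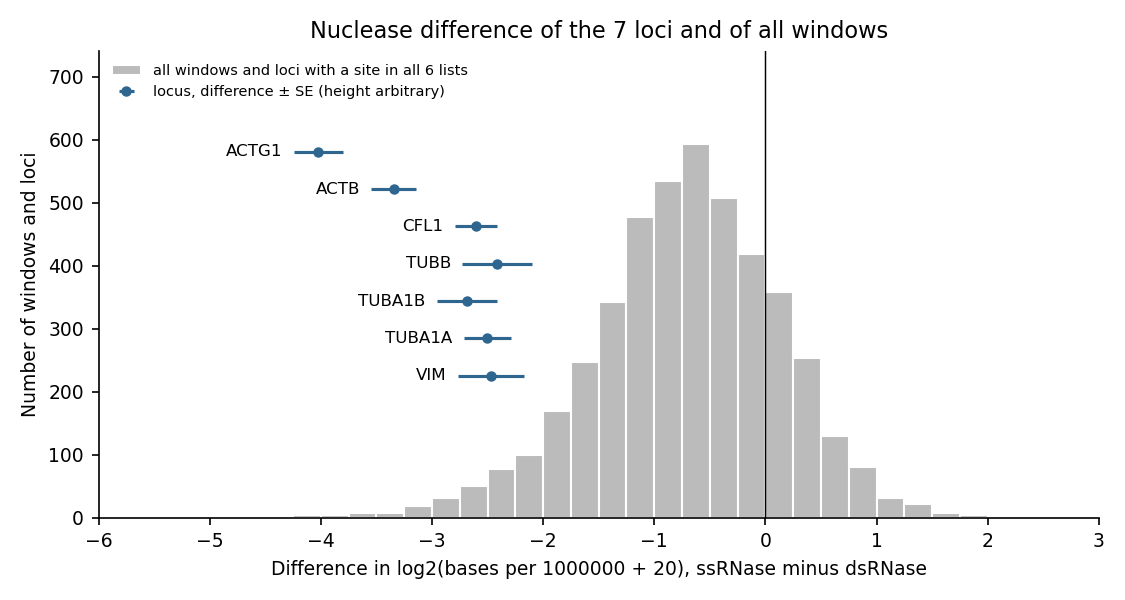
Difference between nucleases in log2(bases per 1000000 + 20), ssRNase minus dsRNase, as a histogram of the 4482 windows and loci with a site in all 6 lists, with the 7 loci as points with their SE (their height has no meaning). The 7 loci lie between -4.02 and -2.41, left of the median of -0.69. The windows are 10000 bp long and the loci shorter.

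Over the 6 lists the scaled values of TUBA1B and TUBA1A were the most alike, with a Euclidean distance of 0.569 on the log2 scale of the fit. ACTG1 and ACTB were each other's nearest locus at 1.37, and TUBB and VIM at 0.818. CFL1 was nearest to TUBB at 0.836. VIM was the locus farthest from ACTB, at 4.08.

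The actins are encoded by genes on different chromosomes whose coding sequences differ mostly at silent positions. Their coding sequences are identical at 1027 of 1125 positions (91.3%), and the longest stretch they share is 59 nt. All mRNA sequences were read from the GENCODE v29 transcript set (GRCh38), counting from the first base of the start codon. The stretch of 60 nt with the most differences, positions 46 to 105 of the coding sequence, is shown as the place where the 2 coding sequences differ most, and capitals mark its 13 differing bases.
ACTB: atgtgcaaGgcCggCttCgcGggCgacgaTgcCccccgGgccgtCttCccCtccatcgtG
ACTG1: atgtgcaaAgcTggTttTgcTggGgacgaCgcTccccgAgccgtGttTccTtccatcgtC
The stretch they share whole, positions 832 to 890, is shown in lower case.
Both actins: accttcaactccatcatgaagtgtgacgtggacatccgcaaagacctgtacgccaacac
Of all windows of 40 nt along the mRNA, 16.8% of ACTB and 7.31% of ACTG1 also occurred in a transcript of another gene. The largest partner was ACTBP2 for ACTB (6.96% of windows), and ACTB and ACTG1 shared 22 windows with each other.

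At ACTG1 all 3 ssRNase lists held a larger share of their protected bases in the 3′ part of the interval, though 3 lists a side cannot reach a p of 0.05. Each interval was cut into 3 equal parts, and the share of protected bases in its 3′ part was 53.2%, 66.7% and 49.3% with ssRNase, against 34.7%, 42.9% and 33.9% with dsRNase. All ssRNase values lay above all dsRNase values, with means of 56.4% ± 9.10 and 37.2% ± 4.98 (SD over n = 3 lists each; exact two-sided permutation p = 0.1, the least possible with 3 lists a side, adjusted to 0.35 over the 7 loci). The 5′ part held a mean of 22.5% with ssRNase and 26.7% with dsRNase. Of 10 equal segments counted from the 5′ end, segment 3 was covered in 8.30% of its bases by any ssRNase list and in 77.2% by any dsRNase list, and segment 5 in 23.4% and 77.9%. At the ends, segment 1 was covered in 27.0% and 12.1%, and segment 10 in 26.6% and 60.7%. The difference was thus not an even shift toward the 3′ end. The ssRNase lists together covered 778 bases of ACTG1 and the dsRNase lists 1621, of which 536 were in both.

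A stretch of 24 nt at chr17:79477330-79477353 was protected in all 6 lists. It lies inside the ACTG1 site with the highest score percentile, 78 nt at chr17:79477323-79477400 in ssRNase replicate 1, which scored above 99.4% of that list. The score, given by the authors, served here for ranks inside 1 list alone. The longest ACTG1 site, 159 nt at chr17:79478919-79479077, was in dsRNase replicate 2, and dsRNase replicate 3 held another ACTG1 site of the same length, while no ssRNase site at this locus was longer than 78 nt. ACTG1 sites recurred most among the dsRNase lists, where 62 of 64 overlapped a site of another dsRNase list, while 22 of 32 did so among the ssRNase lists.

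At ACTB the ssRNase lists covered 1364 bases and the dsRNase lists 1525, with 980 in both, or 71.8% of the ssRNase and 64.3% of the dsRNase bases. In the whole lists 8.84% of the ssRNase bases and 65.3% of the dsRNase bases were shared in this way. At ACTB 154 bases were protected in all 6 lists, in 6 stretches. The 3 longest were chr7:5567465-5567501 and chr7:5567977-5568013 (37 nt each) and chr7:5568156-5568189 (34 nt), the first lying 2732 nt from the 5′ end of the interval.

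No list had a site in segment 2 of ACTB. The 3′ part held 41.9%, 46.1% and 26.2% of the protected bases with ssRNase, against 46.7%, 45.4% and 48.3% with dsRNase (exact two-sided permutation p = 0.2, adjusted to 0.467 over the 7 loci). The groups overlapped. The longest ACTB site was 158 nt at chr7:5567932-5568089 in ssRNase replicate 1, and the highest score percentile, 99.5, belonged to 59 nt at chr7:5569241-5569299 in dsRNase replicate 2. Of the ACTB sites, 44 of 51 with ssRNase and 63 of 67 with dsRNase recurred in another list of the same nuclease.

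Protection of CFL1 was uneven along its interval. In segments 2 to 4 of the 10 no list had a site, while segment 7 was covered in 65.9% of its bases by any ssRNase list and in 70.2% by any dsRNase list. Empty runs were also present at TUBB (segments 2 to 4), TUBA1A (segments 2 to 5) and VIM (segments 4 and 5). Introns were not removed, and whether empty segments are introns was not examined. A stretch of 31 nt at chr11:65622858-65622888 was protected in all 6 lists. It forms one end of the highest-ranking CFL1 site, 82 nt at chr11:65622858-65622939 in dsRNase replicate 2, with a score percentile of 99.5. The longest CFL1 site, 113 nt, was at chr11:65623515-65623627 in ssRNase replicate 1. The 3′ part of the interval held 52.8% ± 20.2 of protected bases with ssRNase and 52.2% ± 9.05 with dsRNase (SD over n = 3 lists each; exact two-sided permutation p = 1.0). Of the CFL1 mRNA, 3.26% of windows of 40 nt occurred in another gene's transcript.

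**Figure D3:**
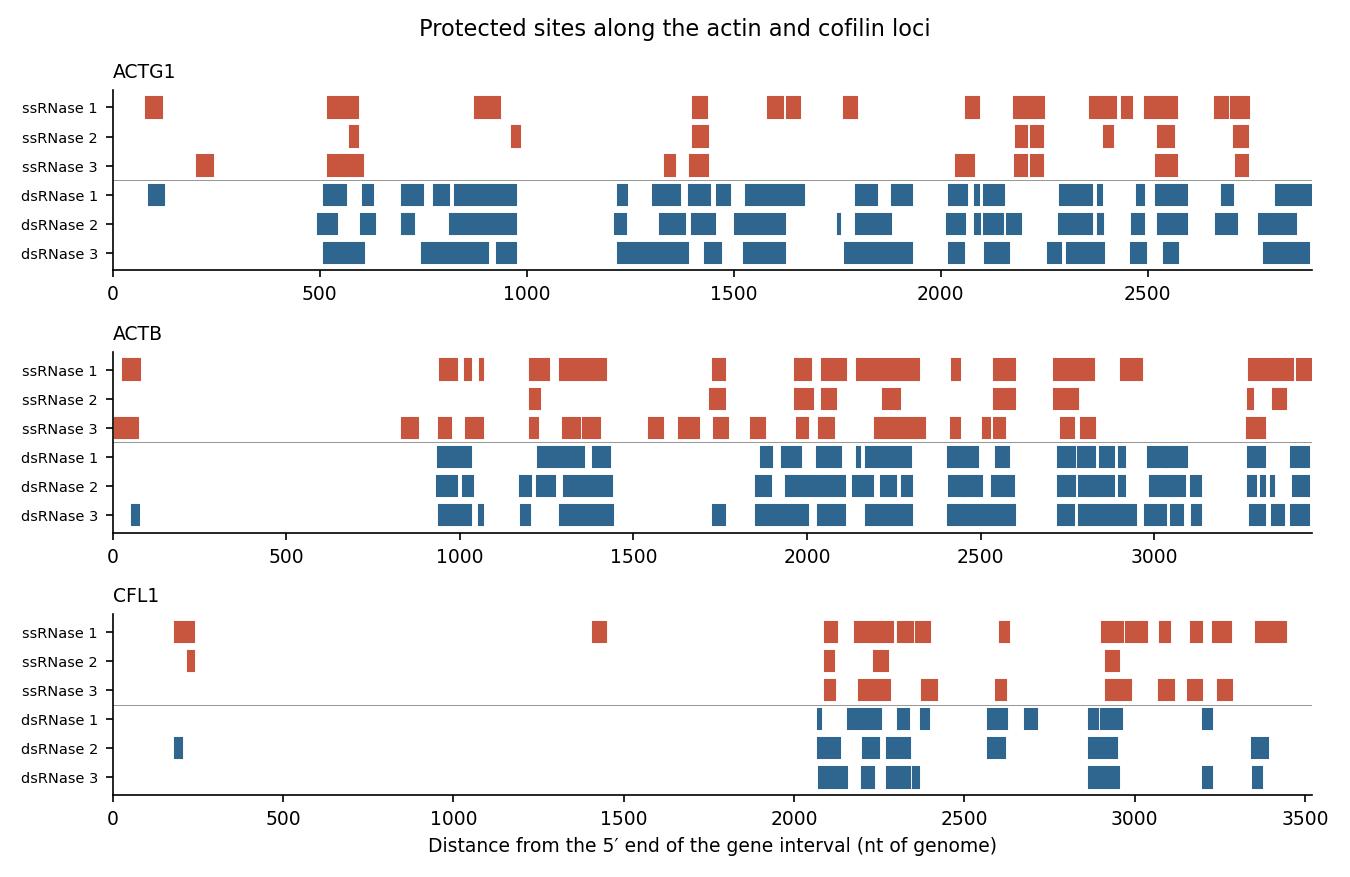
Protected sites along ACTG1, ACTB and CFL1, 1 line per list, ssRNase (red) above dsRNase (blue), against the distance from the 5′ end of the gene interval in nt of genome. At ACTG1 the ssRNase lists cover 778 bases of the interval against 1621 with dsRNase, and at ACTB 1364 against 1525.

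TUBA1A and TUBA1B are neighbours on chromosome 12 and share most of their coding sequence. It is identical at 1315 of 1353 positions (97.2%). Of all windows of 40 nt along the mRNA, 47.3% of TUBA1A and 67.4% of TUBA1B also occurred in a transcript of another gene, 709 of them common to both. TUBA1C, another alpha-tubulin gene, shared 581 windows with TUBA1A and 688 with TUBA1B. The sources used here do not give how the authors treated reads that map to several places.

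The sites of the 2 alpha-tubulins mirrored each other. When the TUBA1A sites were moved by the offset at which most sites of equal length paired up (57052 nt), 44 of 61 overlapped a TUBA1B site of the same list, and 42 of 69 TUBA1B sites were overlapped. Of the 44, 13 carried exactly the same authors' score as their partner, and 7 also had the same length and ends. This offset was chosen after seeing the data.

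One such pair was chr12:49579000-49579057 in TUBA1A and chr12:49521948-49522005 in TUBA1B, both with a score of 339.1 in dsRNase replicate 1. The pair with the highest score, 874.7, was chr12:49579366-49579419 and chr12:49522314-49522367 in the same list, and its TUBA1A site was the highest-ranking of that locus (percentile 97.8). All 7 pairs with the same ends and score were in dsRNase lists. In the ssRNase lists 6 pairs had the same score but different ends, among them the longest TUBA1A site, 185 nt at chr12:49578937-49579121, and its partner at chr12:49521906-49522073.

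The TUBA1A sites with an equal score held 1087 of its 3099 protected bases. Without them TUBA1A had 47.2, 36.4 and 45.7 bases per 1000000 in the ssRNase lists, against 368.0, 318.7 and 550.7 in the dsRNase lists. All ssRNase values remained below all dsRNase values. The difference was -2.75 (SE 0.246, limma adjusted p = 0.00459), against -2.50 with all sites; this comparison was chosen after seeing the data. The values of TUBA1A and TUBA1B are not independent of each other.

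**Figure D4:**
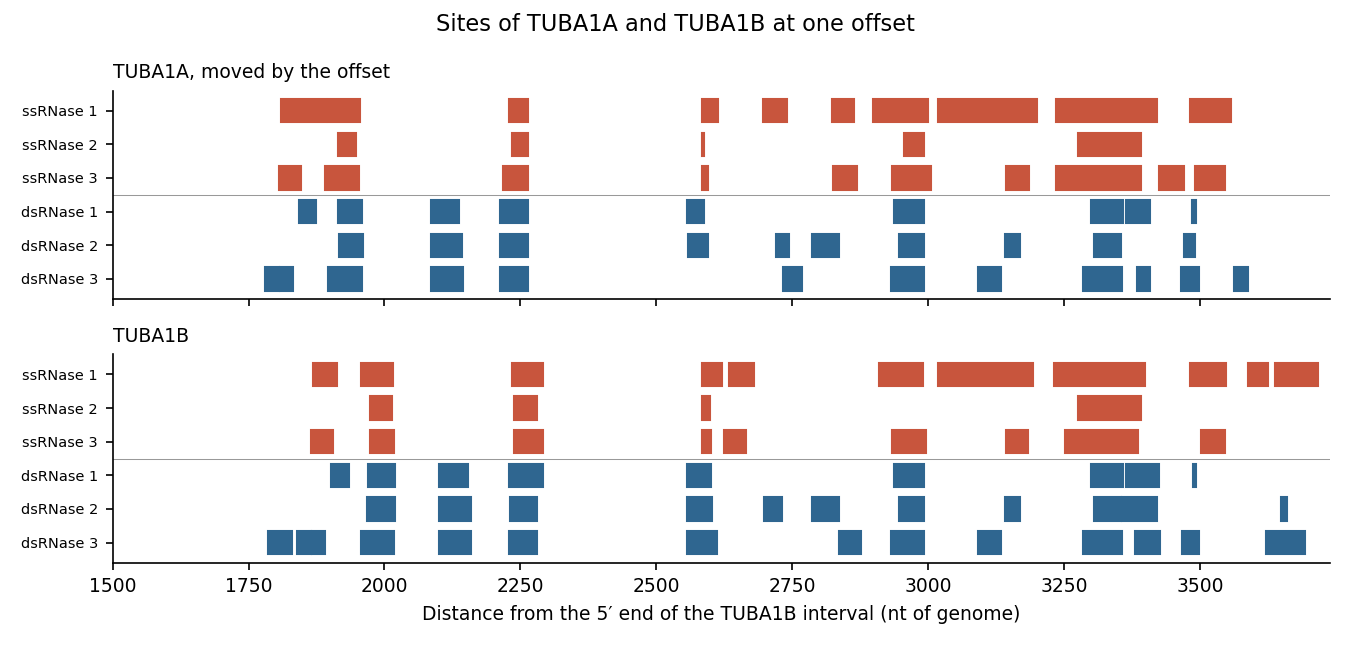
Sites of TUBA1A, moved by the offset of 57052 nt, above those of TUBA1B, 1 line per list with ssRNase (red) above dsRNase (blue), against the distance from the 5′ end of the TUBA1B interval in nt of genome. In the 3′ part of the genes the blocks of each list line up, and 44 of 61 TUBA1A sites overlap a TUBA1B site.

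Longest among the stretches protected in all 6 lists was the same piece of both alpha-tubulins. It measured 49 nt, at chr12:49521951-49521999 in TUBA1B and chr12:49579003-49579051 in TUBA1A, and these positions are one offset apart. In each of the 6 lists the TUBA1A site and the TUBA1B site over this piece carried exactly the same authors' score. The 2 loci are therefore not separate observations of it. TUBA1B had 157 bases in all 6 lists and TUBA1A 148. TUBA1B also had stretches of 43 nt at chr12:49523025-49523067 and 39 nt at chr12:49523293-49523331, the second within its highest-ranking site (61 nt at chr12:49523288-49523348 in dsRNase replicate 3, percentile 98.6).

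In both alpha-tubulins segment 9 of the 10 was the best covered by ssRNase. Any ssRNase list covered 83.9% of it in TUBA1A and 83.4% in TUBA1B, against 38.4% and 40.6% by any dsRNase list. The 3′ part of TUBA1A held 77.4%, 70.7% and 68.4% of protected bases with ssRNase, against 47.0%, 58.0% and 52.8% with dsRNase. The groups did not overlap (means 72.2% ± 4.63 and 52.6% ± 5.50, SD over n = 3 lists each; exact two-sided permutation p = 0.1, adjusted to 0.35 over the 7 loci). In TUBA1B the shares overlapped, with 59.5% ± 6.38 with ssRNase and 55.7% ± 7.92 with dsRNase (SD over n = 3 lists each; exact two-sided permutation p = 0.5).

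TUBB and VIM had no base that was protected in all 6 lists. At TUBB the most shared stretch was 6 nt at chr6:30692051-30692056, in 5 lists. Of its protected bases, 299 were common to both nucleases, of 854 with ssRNase and 557 with dsRNase. No list had a site in segments 2 to 4 of TUBB, and segment 1 had sites in ssRNase replicate 1 alone, covering 17.3% of it. The longest TUBB site was 100 nt at chr6:30691766-30691865 and the highest-ranking 60 nt at chr6:30691179-30691238 (percentile 99.0), both in ssRNase replicate 1. Of the windows of 40 nt of the TUBB mRNA, 24.2% occurred in other transcripts, 21.6% in TUBBP1, a processed pseudogene.

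VIM had the lowest cover of its interval, which is 9335 bp long with introns not removed, for an mRNA of 2135 nt. VIM shared no mRNA window of 40 nt with another gene's transcript. Its most shared stretch, 42 nt at chr10:17271720-17271761, was in 4 lists, and lies inside both the longest VIM site (86 nt at chr10:17271681-17271766 in dsRNase replicate 1) and the highest-ranking one (47 nt at chr10:17271720-17271766 in dsRNase replicate 2, percentile 93.5). The 5′ part, the first of the 3, held on average 67.1% of the ssRNase bases and 35.1% of the dsRNase bases, with overlap between the nucleases. In ssRNase replicate 2 all 3 VIM sites, with 121 bases, lay in this part. In the 3′ part the shares were 41.4%, 0% and 36.2% with ssRNase, against 51.1%, 51.3% and 34.3% with dsRNase, with overlap (exact two-sided permutation p = 0.3). VIM sites recurred the least of the 7 loci, with 13 of 22 ssRNase sites and 15 of 23 dsRNase sites found in a further list of that nuclease.

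**Figure D5:**
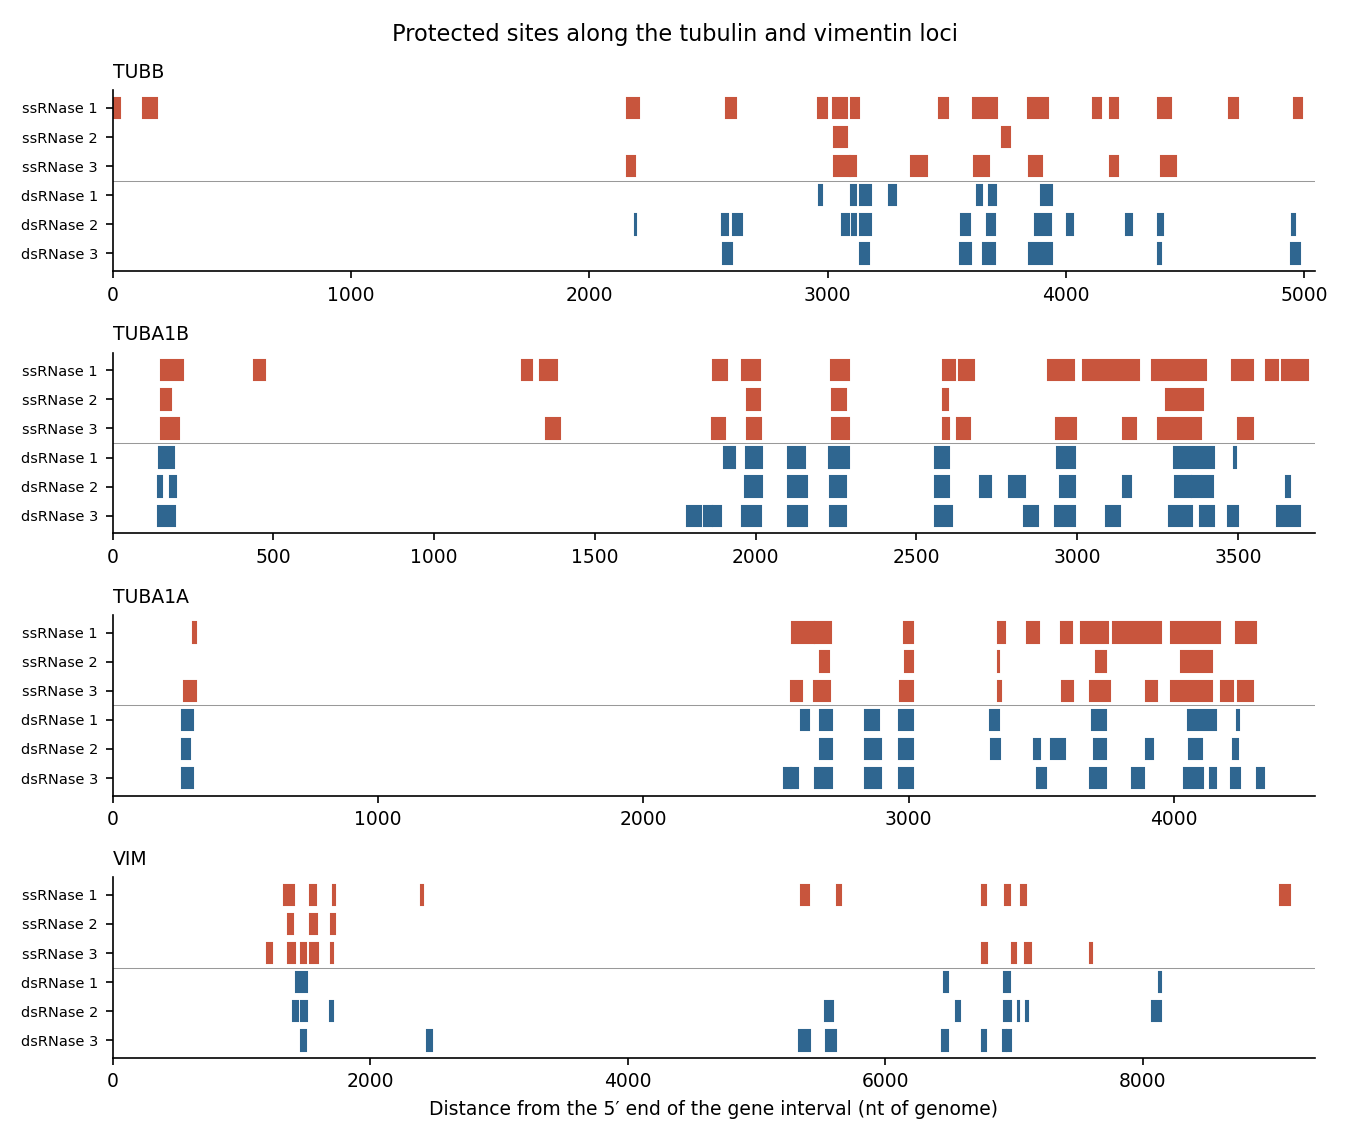
Protected sites along TUBB, TUBA1B, TUBA1A and VIM, 1 line per list, ssRNase (red) above dsRNase (blue), against the distance from the 5′ end of the gene interval in nt of genome; each panel has its own axis. TUBB and VIM have no base in all 6 lists, against 157 bases in TUBA1B and 148 in TUBA1A.

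Further measures that the rule for members does not name were compared between nucleases over the 6 lists, as 6 tests. They come from the same lists whose site positions chose the loci, so they are not independent of that choice. With ssRNase, 69.4%, 94.4% and 83.5% of member sites overlapped a site of a second ssRNase list, against 89.7%, 84.2% and 82.2% for the dsRNase lists among themselves. These groups overlapped (exact two-sided permutation p = 0.8, adjusted 0.96). Over all sites of the same lists the shares were 52.8%, 89.9% and 62.2% with ssRNase, against 51.4%, 47.9% and 54.9% with dsRNase, so that the member share was the higher one in each of the 6 lists. A site is more easily found again in a longer list, and ssRNase replicate 2, with the highest share, was set against the 2 longest lists.

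Pooled over the loci, most member sites of either nuclease overlapped a site of the other by at least 1 nt. At VIM 10 of 22 sites with ssRNase and 12 of 23 with dsRNase did so, the lowest shares of the loci. An overlap of 1 nt does not show that the whole site was protected with both. By bases, the part in both ranged from 32.6% (VIM) to 71.8% (ACTB) of the ssRNase bases. Of the dsRNase bases it was 33.1% (ACTG1) to 68.8% (TUBA1A). Of the member sites, 76.5%, 83.3% and 77.2% of those with ssRNase overlapped a dsRNase site, against 71.3%, 76.2% and 73.3% of those with dsRNase that overlapped a ssRNase site. The ssRNase shares lay just above the dsRNase shares (exact two-sided permutation p = 0.1, adjusted 0.3), but the order turned round when dsRNase replicate 2 or 3 was left out, with differences of -3.66 and -1.15 percentage points. Over all sites the shares were 15.1%, 23.2% and 15.4% with ssRNase, against 73.9%, 75.5% and 76.6% with dsRNase. The member share was thus above that of the list in all 3 ssRNase lists, and close to it with dsRNase, above in 1 of 3. In the authors' merged list over both nucleases, 68 of 123 member sites (55.3%) came from both, against 12.0% of all 293016, and 28 came from ssRNase alone and 27 from dsRNase alone. Of the 123, 23 joined sites of all 6 lists (18.7%, against 0.696% of all): ACTB had 6, TUBA1B 5, ACTG1 4, TUBA1A 4, CFL1 3, VIM 1 and TUBB 0. Such pooled counts take TUBA1A and TUBA1B as separate loci, although their sites are not independent of each other. The loci all had sites in each of the 6 lists, as had 14.3% of windows and loci with a site in at least 3 lists. These contrasts with all sites therefore follow in part from the choice of loci and add no support.

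None of the 7 loci had a site on the opposite strand in any of the 6 lists, so the share was 0 with both nucleases. Among stranded windows with at least as many sites as the member with the fewest in that list, 19.9%, 31.0% and 23.5% had opposite-strand sites with ssRNase, against 4.76%, 8.16% and 10.8% with dsRNase. Most windows had none either. The windows are 10000 bp long and the loci 2896 to 9335 bp, so a window has more room for such a site. These shares are a background and not matched controls. For the 7 loci together the 3′ part of the interval held 52.5% ± 4.38 of protected bases with ssRNase and 47.5% ± 2.49 with dsRNase (SD over n = 3 lists each; exact two-sided permutation p = 0.2, adjusted 0.4). By number of sites in place of bases this difference turned round, to -2.94 percentage points.

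The length of member sites overlapped between nucleases. The median was 47, 36.5 and 42 nt in the ssRNase lists, against 47, 42 and 44 nt in the dsRNase lists (exact two-sided permutation p = 0.7, adjusted 0.96). Over all sites the medians were 43, 44 and 42 nt with ssRNase, against 33, 33 and 34 nt with dsRNase, so that member sites were longer than the list median in all 3 dsRNase lists and in 1 of the 3 ssRNase lists. By the authors' score, 27.6%, 11.1% and 19.0% of member sites with ssRNase ranked in the top 10% of their list, against 39.1%, 32.7% and 37.8% with dsRNase. The groups did not overlap (exact two-sided permutation p = 0.1, adjusted 0.3).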

How the data were processed

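Footprint and digestion-control libraries of HEK293T cells, digested with ssRNase or dsRNase, enter through 6 lists of protected sites. Per the labels' protocols, library preparation included normalisation by duplex-specific nuclease. Per the submitters' processing notes, cutadapt 0.9.5, TopHat2 2.0.9 and build hg19 were used. The deposited lists' names give CSAR as the caller and 5% as the false discovery rate. Each site carries a score, as deposited by the authors, on a scale that the sources used here do not give, and it served only for ranks inside a list. The authors' merged list over both nucleases was used for its site names, which give the replicate sites behind each merged site. Depth is unknown, so there is no count model and no interval for counting error.

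Positions were read as 1-based and inclusive. A site belonged to a locus if its midpoint lay in the interval on the gene's strand. The members and lists were chosen with earlier results of these data known. For the fit, site bases were summed in stranded windows of 10000 bp, with the sites of the 7 loci taken out and given a line each, divided by all site bases of the list and multiplied by 1000000. Windows and loci with a site in at least 3 lists entered a fit in limma 3.58.1 (R 4.3.3; lmFit, eBayes without trend) on log2(value + 20), with Benjamini-Hochberg adjustment over all 31430. The step was tested on simulated lists first. Single values were compared by two-sided exact permutation tests over all regroupings of the lists, coded with numpy 2.4.6, whose smallest p is 0.1. Overlap means at least 1 nt on the same strand.

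Named sites followed a rule: per locus up to 3 stretches covered in the most lists, the longest site and the one with the highest score percentile, except the pairs of alpha-tubulin sites, chosen after their values were seen. Alternatives were other pseudocounts, filters, windows, scalings, subsets of sites, single lists left out and a replicate block. The number of unused columns of per-sample values was 0. Related cytoskeletal genes beyond the 7 are not analysed here, since their hg19 positions were not at hand. Sequences of mRNAs came from GENCODE v29 (GRCh38), 1 principal transcript a gene, and no coordinates were converted between builds. Sequences of the alpha-tubulin mRNAs are not reported here.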

Additional observations from a re-analysis of the deposited data

How the results depend on the processing

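All 7 loci stayed lower with ssRNase under every alternative of the fit, and all 7 passed with pseudocounts of 5 and 100, without the filter, with a site in at least 4 lists, with windows of 5000 bp, by number of sites, with scaling within strands, with the better-scoring 50% of sites, with scaling by the median of windows with a site in all 6 lists and without the TUBA1A sites of equal score (the last 2 chosen after seeing the data). With equal numbers of sites 5 passed, and leaving out a list gave 2 to 7. Over all windows and loci 10562 passed in the main analysis, 6983 with a pseudocount of 100 and 13613 with 5, 830 with sites in at least 4 lists, 1668 with equal numbers of sites, 15330 with median scaling, and 45 to 10077 with a list left out. The median difference of all windows was 1.10 with median scaling, against 0.43 without, and the loci then lay between -3.36 and -1.75.

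With a replicate block in the fit 0 of the 7 loci passed (limma adjusted p 0.0514 to 0.0515), and 0 of all windows, although 11365 had an unadjusted p below 0.05. Deviations of same-numbered lists correlated at -0.045, -0.067 and -0.037, and lists with different numbers at -0.032 to 0.076, over 4482 windows and loci. These correlations set lists of different nucleases against each other. They cannot show whether same-numbered samples shared a culture or preparation, which the labels do not state. For single values the block leaves the differences as they were, and its smallest p is 0.25.

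As ssRNase minus dsRNase, recurrence in the same nuclease differed by -2.89 percentage points, and by -22.7 to 8.34 with a list left out; recurrence in the other nuclease differed by 5.42, and by -3.66 to 26.1. With equal numbers of sites, which leave few ssRNase sites by construction, these were -61.5 and 62.8. The share in the 3′ part of 3 differed by 4.98 percentage points, by 2.57 to 6.85 with a list left out, by -2.94 in share of sites and by -0.48 when the interval was cut into 2 parts. Median length differed by -2.50 nt, and by -5.08 to 0.167 with a list left out. The opposite-strand share was 0 in all. Where a value moved, the cause was not tested.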

Other observations

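Protected sites near the loci, within 2000 bp of an interval on the gene's strand, were few, with 0 to 2 per locus and list. Of the member sites, 2, 3 and 2 in the ssRNase lists and 0, 0 and 1 in the dsRNase lists had both ends at the same positions as a site of another list. These are 2.04%, 8.33% and 2.53% with ssRNase, where 1.57%, 3.38% and 1.83% of all sites of the lists did so. With dsRNase they are 0%, 0% and 1.11%, where 2.25%, 1.98% and 2.30% of all sites did so. A single site end was shared by 4 lists or more, the 3′ end at position 49580093 of chromosome 12 in TUBA1A, found in 3 ssRNase lists and 1 dsRNase list.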
